A study of Mus musculus with 24 samples.

Results

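Single ovulated oocytes of wild-type mice were set against the control RNA of the amplification kit, to describe which transcripts the egg holds in abundance and which it lacks. The members were the 11 wild-type oocyte libraries and the 1 control RNA library, 12 of the 22 libraries with values, described across all 25965 listed genes. The oocytes came from 4 adult females of the genotype Thy1.2-AMH0/0, that is, without the Thy1.2-AMH transgene that the study's other females carried, and ovulation was natural. Cumulus complexes were collected from the oviduct. The cumulus was removed with hyaluronidase and the zona with acid Tyrode's solution before each egg was lysed alone. Each of the 4 sequencing lanes held 1 of the females, with 3 oocytes each in lanes 1 to 3 and 2 oocytes in lane 4. The control RNA, which the labels tie to the SMART-Seq v4 kit and to no tissue, genotype or treatment, was also in lane 4. The remaining 10 libraries with values were oocytes of transgenic females, and the water-only library was not analysed here. With 1 control library no test was possible, so every comparison is a description.

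The ovulated mouse egg is arrested in the second meiotic division and is nearly silent in transcription, so its RNA is a store laid down while the oocyte grew. That store supplies the zona glycoproteins and secreted growth factors of the growing oocyte, the proteins that hold the meiotic arrest, and the maternal factors that the embryo uses until its own genome is switched on. Levels are given as RPM, that is, a gene's reads in each 1000000 that its library holds. An oocyte mean is the mean over the 4 females, with the SD of the 4 female means (n = 4). A gene was called egg-enriched at a mean of at least 10 RPM and a ratio to the control of at least 10, and control-enriched in the reverse case. A value under 3 reads in the denominator was set to 3 reads, which is 0.136 RPM in the control and 0.128 RPM in an average oocyte. Intervals of single ratios are 95% Poisson limits of the control's reads and cover counting error only. A ratio given with such limits divides by the control's own reads, without the floor.

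The 4 marker genes separated the 2 kinds of RNA in every library. Zbed3, a zinc finger protein of the subcortical maternal complex (GRCm38 chromosome 13, 95325237 to 95337841), ran from 13199 through a median of 14249 to 21402 RPM in the oocytes and stood at 16.1 RPM in the control. The oocyte linker histone H1foo (chromosome 6, 115944938 to 115950236) ran from 5965 through 7697 to 10522 RPM, against 4.54 RPM. Gdf9, a growth factor that the oocyte secretes to its granulosa cells (chromosome 11, 53431023 to 53437904), ran from 2913 through 3812 to 7504 RPM, against 5.08 RPM. No oocyte came near the control in any of the 3 egg genes. Mbp, the myelin basic protein of oligodendrocytes, went the other way, with 0.813, 3.50 and 8.76 RPM as the lowest, median and highest oocyte and 6070 RPM in the control. In the 10 transgenic oocytes Zbed3 ran from 14256 to 24509 RPM and Mbp from 0 to 10.1 RPM.

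**Figure D1:**
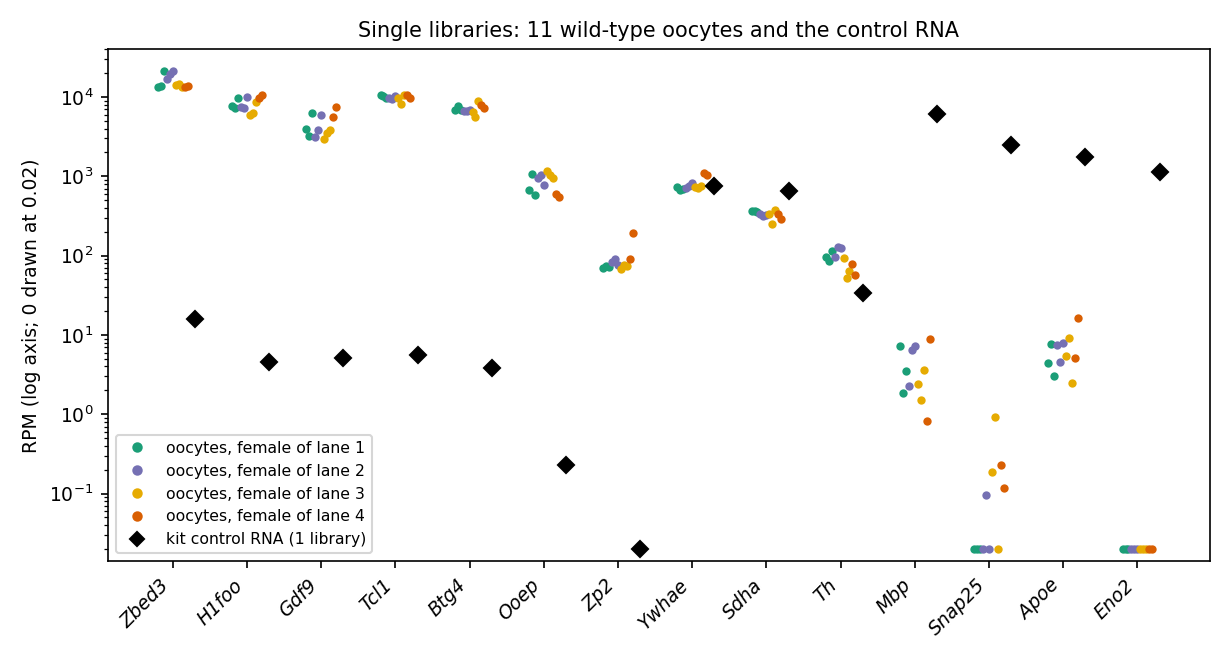
RPM on a log axis in each of the 11 wild-type oocytes (circles, coloured by the female's lane) and in the control RNA (black diamonds) for 14 genes, with 0 drawn at 0.02. The control lies far under all oocytes for Zbed3 to Zp2, beside them for Ywhae and Sdha, and far above them for Mbp, Snap25, Apoe and Eno2.

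Library totals ran from 20441302 to 28305316 reads in the oocytes and came to 22039362 in the control. The oocytes had 10690 to 11027 genes at 1 RPM or more and the control had 14682. The 10 most abundant genes took 6.65% to 8.66% of an oocyte's reads and 3.22% of the control's. The oocyte store was thus spread over fewer genes, with more of it in the leading ones.

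The 2 oocytes of the lane 4 female stood apart from the other 9. Across 6605 genes whose mean reached 10 RPM, Pearson's r of log2(RPM + 1) was 0.883 to 0.937 between those 2 oocytes and the rest, 0.969 between the pair, and 0.935 to 0.978 among the rest. These are correlations across genes, which are not independent replicates. The 2 oocytes had 430 and 664 genes more than 2-fold from the median oocyte, against 72 to 188 in the others. Both lay over 2-fold above the highest other oocyte in 20 egg-enriched genes and over 2-fold under the lowest in 2. The female and the lane cannot be told apart in wild-type libraries. Values without this female are given beside each egg-enriched gene whose mean they move by over 1.5 times. Without it 1336 genes were egg-enriched in place of 1326.

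The zona gene Zp3 was 1 example, at 395.0 and 720.8 RPM in the lane 4 oocytes and 91.4 to 157.6 RPM in the rest. Bmp15, the partner of Gdf9, stood at 3221 and 4499 against 796.8 to 1397 RPM. Ube2t, a ubiquitin-conjugating enzyme of DNA crosslink repair, stood at 1448 and 1558 against 94.7 to 229.3 RPM, and its mean of 484.0 RPM was 144.4 without that female. Ube2c, which conjugates ubiquitin for the anaphase-promoting complex, had a mean of 80.1 RPM with and 24.7 RPM without it. The 2 transgenic oocytes of lane 4 had 199.3 and 162.1 RPM of Zp3, 2295 and 2066 RPM of Bmp15 and 474.5 and 639.6 RPM of Ube2t. Transgenic oocytes of the other lanes are not given here for these genes, so these values do not tell lane from genotype. Tcl1, Btg4 and Zbed3 of the lane 4 female lay within the range of the other oocytes.

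**Figure D2:**
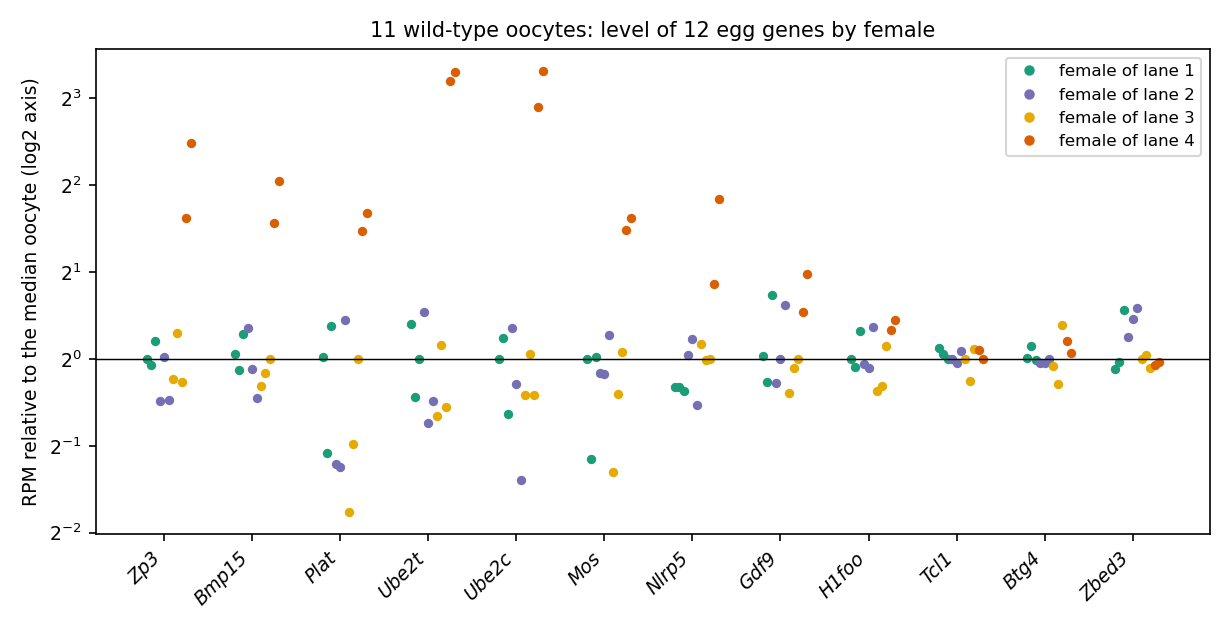
Level of 12 egg genes in each of the 11 wild-type oocytes relative to the median oocyte (log2 axis), coloured by female. The 2 oocytes of the lane 4 female are above all others for Zp3, Bmp15, Plat, Ube2t, Ube2c, Mos and Nlrp5, and among them for Tcl1, Btg4 and Zbed3.

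Genes far higher in 1 kind of library often had a few reads in the other. In 71 egg-enriched genes whose mean reached 500 RPM and whose ratio reached 500, the control's level was a median of 0.0557% of the oocyte level (quartiles 0.0387% and 0.0755%). The ratio rule capped these levels, and the highest was 0.1970%. Of the 38 egg-enriched genes above 2000 RPM, 18 had ratios between 1500 and 2500 and 1 had a higher one. In the other direction, 134 genes of at least 300 RPM in the control and a median under 0.2 RPM in the oocytes had reads in 57 and 73 genes in the lane 4 oocytes and in 16 to 57 genes in the rest. Their summed level was 0.0124% to 0.0274% of the control's. The rule of a low oocyte median kept these levels low too. The source of these reads was not tested.

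Egg-enriched genes numbered 1326, or 5.11% of the listed genes, and control-enriched genes 4311, or 16.6%. In 1325 of the egg-enriched genes the lowest oocyte was above the control, and in all 4311 control-enriched genes the highest oocyte was below it. The calls rest on a 10-fold ratio to this same control, so this separation follows largely from the rule. Ratios reached 100 in 483 egg-enriched genes and 1000 in 112, and 198 genes (0.763%) had at least 10 RPM in oocytes with 0 control reads. The egg-enriched genes took 44.3% to 48.7% of an oocyte's reads and 1.09% of the control's, while the control-enriched genes took 0.811% to 1.14% of an oocyte's and 48.9% of the control's. A wide gap between the kinds in these shares is likewise fixed by the calls. Over the 16119 genes at 1 RPM or more in either kind the median log2 ratio was -1.93, so most genes were below the control. Scaling by a trimmed mean of log ratios moved that median by 0.65, to -1.28, and the share of egg-enriched among all calls from 23.5% to 33.7%. Called genes included, 5066 genes had at least 10 RPM in both kinds, and 1899 of them lay within 2-fold.

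**Figure D3:**
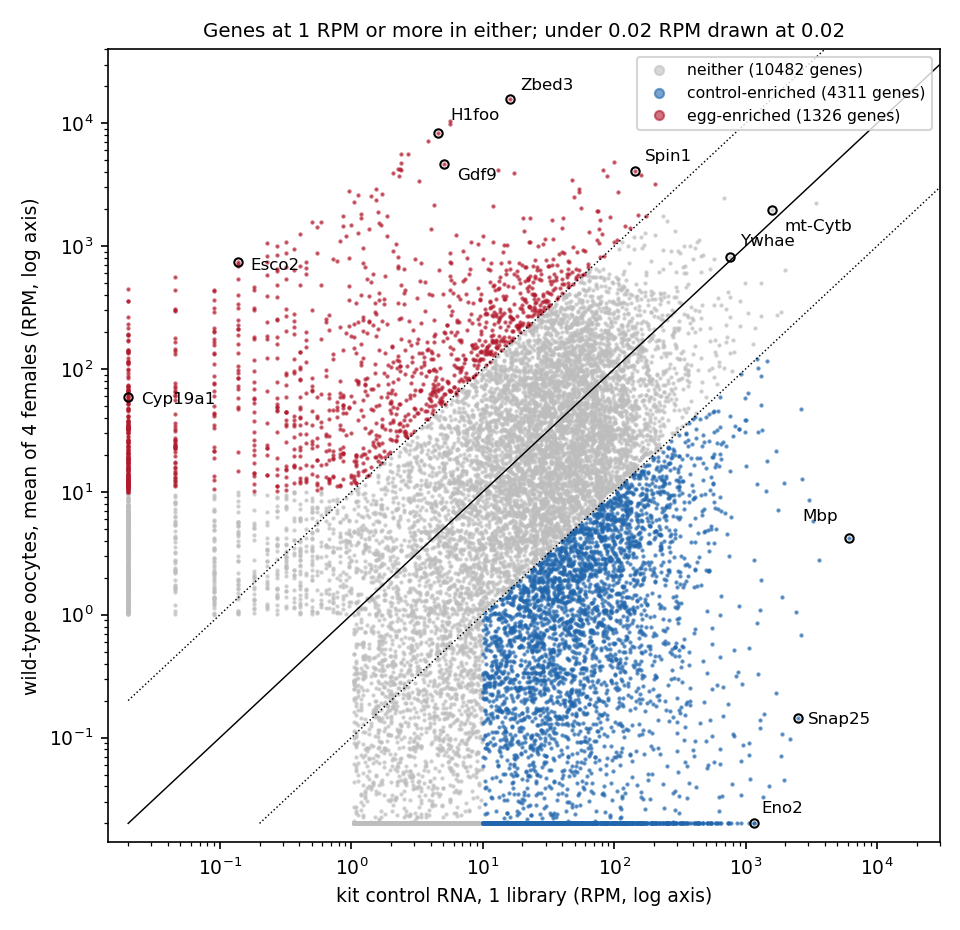
Mean RPM of the oocytes (vertical) against RPM of the control RNA (horizontal) for 16119 genes, both on log axes, with values under 0.02 drawn at 0.02. The solid line marks equal levels and the dotted lines a ratio of 10 either way. Egg-enriched genes (red, 1326) fill the upper left and control-enriched genes (blue, 4311) the lower right, with Ywhae and mt-Cytb near the line.

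Zbed3 was the most abundant egg-enriched gene at 15797 ± 2543 RPM, 983.5-fold over the control (886.2 to 1095). Next came Bcl2l10, an oocyte member of the Bcl2 family, with 7707, 11061 and 12140 RPM as the lowest, median and highest oocyte and 5.67 RPM in the control. Tcl1, a coactivator of the kinase Akt, ran from 8164 through 9735 to 10595 RPM against 5.63 RPM. Its SD over the females was 301.3 RPM on a mean of 9886 RPM, the smaller spread of the pair. Btg4, the adaptor that brings maternal mRNA to the CCR4-NOT deadenylase, ran from 5624 through 6875 to 8995 RPM, against 3.81 RPM. Rfpl4, an oocyte RING finger protein, had a mean of 5652 ± 183.3 RPM against 2.40 RPM, a ratio of 2350 (1797 to 3138).

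Levels of different genes are comparable only per length. In RPM per kilobase of exon, Bcl2l10 stood at 8557, Zbed3 at 7081, H1foo at 6940, Tcl1 at 5358, Oosp1, a secreted oocyte protein, at 4361, and Gdf9 at 2300. The entry that the table calls Trim61 stood at 4685 on this scale. Its gene ID is that of Apela in GENCODE M21, a gene for a small secreted peptide of the apelin receptor, and it overlaps the Trim60 entry. Bcl2l10 therefore led per kilobase, while Zbed3 led in RPM.

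Some leading egg genes were also well represented in the control. Rdx, which encodes the membrane linker radixin, stood at 4874 ± 929.4 RPM in oocytes and 99.6 RPM in the control, a ratio of 48.9. Bpgm, a red-cell glycolytic mutase, stood at 4186 ± 467.6 against 82.5 RPM, a ratio of 50.8. Spin1, a histone methyl-mark reader first described at the meiotic spindle, stood at 4067 ± 214.1 against 143.3 RPM, a ratio of 28.4. These 3 were as abundant as Gdf9 in RPM, with ratios of 10 to 100 rather than near 1000. Mphosph6, an exosome cofactor, lay between, at 4183 ± 262.4 against 13.0 RPM. Oog3 and Pttg1 completed the leading 15 named genes with means of 4137 and 3912 RPM and ratios of 1720 and 1874.

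The 15 largest ratios were ranked with the floor of 3 reads among named egg-enriched genes of at least 100 RPM. Esco2, the acetyltransferase that establishes sister chromatid cohesion, ran from 556.6 through 772.5 to 939.8 RPM in the oocytes and had 3 reads in the control, a ratio of 5500 (1882 to 26671). Nlrp9c, a member of an NLRP subgroup expressed in oocytes, ran from 832.2 through 1056 to 1293 RPM against 5 control reads, a ratio of 4706 (2017 to 14494). Klf17, a zinc finger transcription factor, had a mean of 1009 ± 135.1 RPM against 6 reads. The other 12 genes of this kind had 1 to 21 control reads. 6 of the 15, Esco2, Fbxw18, Lgsn, Aspm, Ehf and Tcl1b4, had 3 reads or fewer. For Ehf, an epithelial ETS factor, a mean of 441.5 RPM over 1 read gave an unfloored ratio of 9730 with limits of 1746 and 384324. With the floor its log2 ratio was 11.66. For Aspm, a spindle pole protein, 433.5 RPM over 2 reads gave 4777 (1322 to 39444) without the floor and a log2 ratio of 11.64 with it. The intervals overlap widely, so the order among these genes is not resolved.

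Upstream sequence was taken for the genes with the highest levels and ratios from RefSeq starts on GRCm38.p6. Of the listed genes 17807 matched a promoter of 250 bases before to 50 bases after the start. 4 upstream stretches of 250 bases are shown because they belong to abundant or highly enriched egg genes and differ in the letters they hold. They are Oog3, chr4:144162652-144162901 on the minus strand, Rfpl4, chr7:5116912-5117161 on the minus strand, Wee2, chr6:40442613-40442862 on the plus strand, and Zbed3, chr13:95323355-95323604 on the plus strand. Capitals mark 5 motifs on either strand. They are the TATA box TATAAA, the homeobox letters TAATTG and their close relatives TAATTA and then TGATTG, and the E-box CACGTG. In the Oog3 stretch CAATTA is TAATTG read on the other strand, and in the Rfpl4 stretch CAATCA is TGATTG read so. The Zbed3 stretch holds none of the 5 in these exact letters, though TATA-like letters, tatataag, lie near its end.
Oog3: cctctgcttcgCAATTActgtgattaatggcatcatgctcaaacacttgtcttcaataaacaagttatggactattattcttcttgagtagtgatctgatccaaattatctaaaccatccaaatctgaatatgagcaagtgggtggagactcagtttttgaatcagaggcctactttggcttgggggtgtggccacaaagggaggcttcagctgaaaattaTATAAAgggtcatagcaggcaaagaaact
Rfpl4: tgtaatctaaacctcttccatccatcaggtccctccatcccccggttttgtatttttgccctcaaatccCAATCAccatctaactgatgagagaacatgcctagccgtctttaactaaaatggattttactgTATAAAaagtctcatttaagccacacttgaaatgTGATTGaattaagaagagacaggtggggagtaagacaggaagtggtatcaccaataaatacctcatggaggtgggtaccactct
Wee2: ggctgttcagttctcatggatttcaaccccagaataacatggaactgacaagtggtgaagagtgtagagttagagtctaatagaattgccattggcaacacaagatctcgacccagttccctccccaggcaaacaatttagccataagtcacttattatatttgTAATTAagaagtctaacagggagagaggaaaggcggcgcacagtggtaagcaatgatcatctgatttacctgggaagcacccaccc
Zbed3: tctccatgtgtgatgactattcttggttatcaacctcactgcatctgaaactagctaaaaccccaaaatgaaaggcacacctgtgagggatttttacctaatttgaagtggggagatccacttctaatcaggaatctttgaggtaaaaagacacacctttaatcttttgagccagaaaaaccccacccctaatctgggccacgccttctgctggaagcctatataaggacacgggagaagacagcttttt

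Nobox, a homeobox factor of the oocyte, is known to bind TAATTG. That motif was found on either strand in 17.6% of the 85 matched egg-enriched genes with ratios of at least 1000. It was found in 6.97% of all 1005 matched egg-enriched genes and in 7.00% of all matched promoters. TAATTA was found in 8.24%, 4.68% and 4.63% of the same sets, and TGATTG in 27.1%, 20.6% and 14.7%. The E-box core CANNTG, of which the E-box above is one form, was found in 89.4%, 72.0% and 69.0%. The full E-box CACGTG was less frequent in the first set, at 3.53%, 8.46% and 7.99%, and TATAAA was found in 9.41%, 9.25% and 12.7%. Counted only on the gene strand 50 to 16 bases before the start, TATAAA was found in 3.53%, 2.29% and 2.91%. The sets also differed in base composition. Fewer than 5 CG dinucleotides in 300 bases were found in 60.0% of the 85 promoters, 21.0% of the 1005, 28.4% of all, and 6.80% of the 3293 control-enriched ones. Median GC content was 49.3%, 57.7%, 56.3% and 61.7% in that order. Whether the motif shares differ beyond base composition was not tested. Family copies can have like promoters, as Tcl1b2 and Tcl1b4 do, and their part in the shares was not tested either.

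The list of secreted and zona genes had 10 of 13 egg-enriched and none control-enriched, against 5.11% and 16.6% of all genes. Its median log2 ratio was 9.95. It also held Nlrp14, 1 of the 10, and Kit, which are neither secreted factors nor zona genes. The lists were drawn up with earlier results of these data known. Gdf9 stood at 4672 ± 1317 RPM, 919.3-fold over the control (764.0 to 1117). Bmp15 stood at 1765 ± 1398 RPM and at 1067 RPM without the lane 4 female, which is 573.5-fold over the control's 41 reads. Oosp1 and its neighbours Plac1l and Gm97, which M21 names Oosp2 and Oosp3, stood at 4239, 210.5 and 1560 RPM with 52, 3 and 13 control reads. Of the zona genes, Zp1 ran from 83.8 through 140.0 to 212.1 RPM and Zp2 from 67.8 through 75.2 to 193.5 RPM. Zp2 had 0 control reads and was at least 678.9-fold higher in oocytes. Zp3 had a mean of 229.8 RPM, or 120.5 RPM without the lane 4 female, over 3 control reads. The members outside the call were Bmp6 and Kit, at 41.7 and 128.9 RPM with 18.0 and 84.1 RPM in the control, and Fgf8 at 6.48 RPM with no control read.

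All 11 genes of the subcortical maternal complex list, whose core proteins form a lattice under the egg membrane, were egg-enriched, with a median log2 ratio of 10.54. Beside Zbed3 the core gene Ooep ran from 540.6 through 949.8 to 1180 RPM over 5 control reads. Padi6, a peptidylarginine deiminase needed for the cytoplasmic lattices, stood at 437.4 ± 26.7 RPM over 4 control reads. Nlrp5, also called MATER, stood at 202.0 ± 130.9 RPM over 2 control reads, a ratio of 2226 (616.3 to 18384). Tle6 had a mean of 174.1 RPM, or 100.6 RPM without the lane 4 female. The entry 2410004A20Rik, whose ID is that of Khdc3, had 44.3 RPM with and 13.6 RPM without it. Among all NLRP genes 12 of 19 (63.2%) were egg-enriched and none control-enriched, against 5.11% and 16.6% of all genes. Nlrp14 led at 1684 ± 554.1 RPM, then Nlrp4f at 1084 ± 239.7, Nlrp9c at 1068 ± 98.0 and Nlrp4a at 943.9 ± 63.6 RPM. Neighbouring NLRP copies are alike, and the sources used here do not say how reads shared by copies were counted, which also holds for the Tcl1b, Obox, Oog and Fbxw copies below.

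Oocyte transcription factors were 12 of 17 egg-enriched (70.6%) and none control-enriched, against 5.11% and 16.6% of all genes. Their median log2 ratio was 8.69. The homeobox genes Obox2, Obox5 and Obox1 led at 3724 ± 326.9, 2542 ± 193.5 and 1751 ± 68.4 RPM, while Obox3 and Obox6 stood at 0.147 and 0.117 RPM. Dppa3, known as Stella, which shields maternal methylation, stood at 2833 ± 413.9 RPM over 21 control reads. Nobox ran from 70.1 through 103.7 to 149.9 RPM with 0 control reads, at least 807.3-fold. The imprint keeper Zfp57 stood at 522.7 ± 94.7 RPM against 3.31 RPM. Lhx8 and Sohlh2, which act early in folliculogenesis, were also egg-enriched, at 53.1 ± 11.0 and 16.7 ± 1.36 RPM. Figla and Sohlh1, of the same stage, were called neither way, at 1.37 and 0.0290 RPM.

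Chromatin genes were 8 of 17 egg-enriched (47.1%) and none control-enriched, against 5.11% and 16.6% of all genes. H1foo stood at 8335 ± 1321 RPM, 1837-fold over the control (1510 to 2258). Npm2, the nucleoplasmin that remodels sperm chromatin, stood at 658.6 ± 149.7 RPM over 10 control reads. The maintenance methyltransferase Dnmt1 ran from 646.3 through 891.5 to 1215 RPM against 57.8 RPM. Tet3, the egg's methylcytosine oxidase, stood at 896.9 ± 17.5 RPM against 39.7 RPM, a ratio of 22.6. These 2 enzymes were abundant in eggs but also present in the control. H3f3b, which encodes the histone variant H3.3, missed the call at 1602 ± 111.1 against 251.6 RPM, a log2 ratio of 2.67 that passed at 3.33 with the trimmed mean scaling.

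Genes of the metaphase II arrest and the meiotic divisions were 17 of 21 egg-enriched and none control-enriched. The egg-enriched share was 81.0%, against 5.11% of all genes, and 16.6% of all genes were control-enriched. Securin, encoded by Pttg1, ran from 2929 through 4119 to 5050 RPM over 46 control reads. Cyclin B1, encoded by Ccnb1, stood at 1372 ± 170.8 RPM over 30 reads, and the checkpoint kinase Bub1b at 965.2 ± 148.0 RPM over 27 reads. Wee2, the oocyte kinase that holds Cdk1 in check, stood at 842.0 ± 69.1 RPM over 6 reads. Fbxo43, known as Emi2, which keeps the anaphase-promoting complex inactive, stood at 181.0 ± 12.6 RPM over 4 reads. The arrest kinase Mos ran from 214.1 through 526.8 to 1623 RPM, with a mean of 725.3 RPM that was 450.1 RPM without the lane 4 female. Rec8, the meiotic cohesin subunit, had 0 reads in all 11 oocytes, so that a summed level of at most 0.0116 RPM is allowed, and 14 reads in the control. Fzr1, the other activator of the anaphase-promoting complex beside Cdc20, stood at 11.4 RPM in oocytes and 113.8 RPM in the control. Without the lane 4 female Fzr1 passed as control-enriched.

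The list for maternal mRNA storage and decay had 12 of 20 egg-enriched genes and 1 control-enriched gene. These are 60.0% and 5.00%, against 5.11% and 16.6% of all genes. Dazl, a translation activator of germ cells, ran from 1727 through 2176 to 2671 RPM against 4.27 RPM. Zar1, which organises mRNA storage in the oocyte, stood at 1539 ± 270.3 RPM over 36 control reads. The deadenylase Cnot7 stood at 1456 ± 48.6 RPM against 120.1 RPM, a ratio of 12.1. Zcchc11, which M21 names Tut4, a uridylating enzyme, was the control-enriched member at 1.67 against 20.6 RPM. Its log2 ratio of -3.62 became -2.94 with the trimmed mean scaling and -2.91 from lane 4 alone, both short of the 10-fold call. Ddx6, a helicase of mRNA storage granules, and Ythdf2, a reader of methylated mRNA, were called neither way. Ddx6 stood at 15.8 and 18.5 RPM, and Ythdf2 at 64.8 and 58.7 RPM, in oocytes and control.

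Egg activation and fertilisation genes were 3 of 14 egg-enriched (21.4%) and 2 control-enriched (14.3%), against 5.11% and 16.6% of all genes. Folr4, which M21 names Izumo1r and which encodes the Juno receptor for sperm, ran from 67.4 through 96.1 to 155.0 RPM with 0 control reads, at least 737.7-fold. Plat, tissue plasminogen activator, had a mean of 3693 ± 3156 RPM against 88.3 RPM, and 2126 RPM without the lane 4 female. Cd9, the egg tetraspanin needed for fusion, stood at 32.7 ± 27.6 RPM, or 19.0 RPM without the lane 4 female, against 86.7 RPM in the control. Itpr1, the calcium release channel of egg activation, stood at 54.7 ± 5.36 against 243.9 RPM. Both proteins act in eggs, and the mean of neither transcript was above the control, though the highest oocyte had 106.9 RPM of Cd9. Stx4a and Prkca were control-enriched at 34.8 and 65.6 RPM against 1.86 and 0.657 RPM.

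Small RNA genes were 8 of 14 egg-enriched (57.1%) and none control-enriched, against 5.11% and 16.6% of all genes. Dicer1 ran from 348.8 through 607.9 to 738.0 RPM against 22.0 RPM. Asz1, a piRNA factor of the germ line, stood at 179.4 ± 30.2 RPM over 1 control read. Its unfloored ratio was 3954 with limits of 709.7 and 156184, and with the floor of 3 reads its log2 ratio was 10.36. Tdrd1, a tudor scaffold of the same pathway, stood at 48.6 ± 4.80 RPM over 6 reads. Piwil2 and Piwil4 were at 0.179 and 0.175 RPM. Genes that mark the 2-cell embryo were mostly near 0, with 2 of 12 egg-enriched and 1, the translation factor gene Eif1a, control-enriched at 62.4 against 0.906 RPM. These counts are 16.7% and 8.33%, against the same 5.11% and 16.6% of all genes. Tcstv1 ran from 30.1 to 114.1 RPM and Sp110, an SP100-like nuclear protein, from 55.9 to 98.7 RPM, against 0 and 11 control reads. Zscan4d, a gene of the burst at genome activation, ran from 0.309 to 3.11 RPM, and Zscan4c, Zscan4f and Zfp352 were below 0.2 RPM on average.

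**Figure D4:**
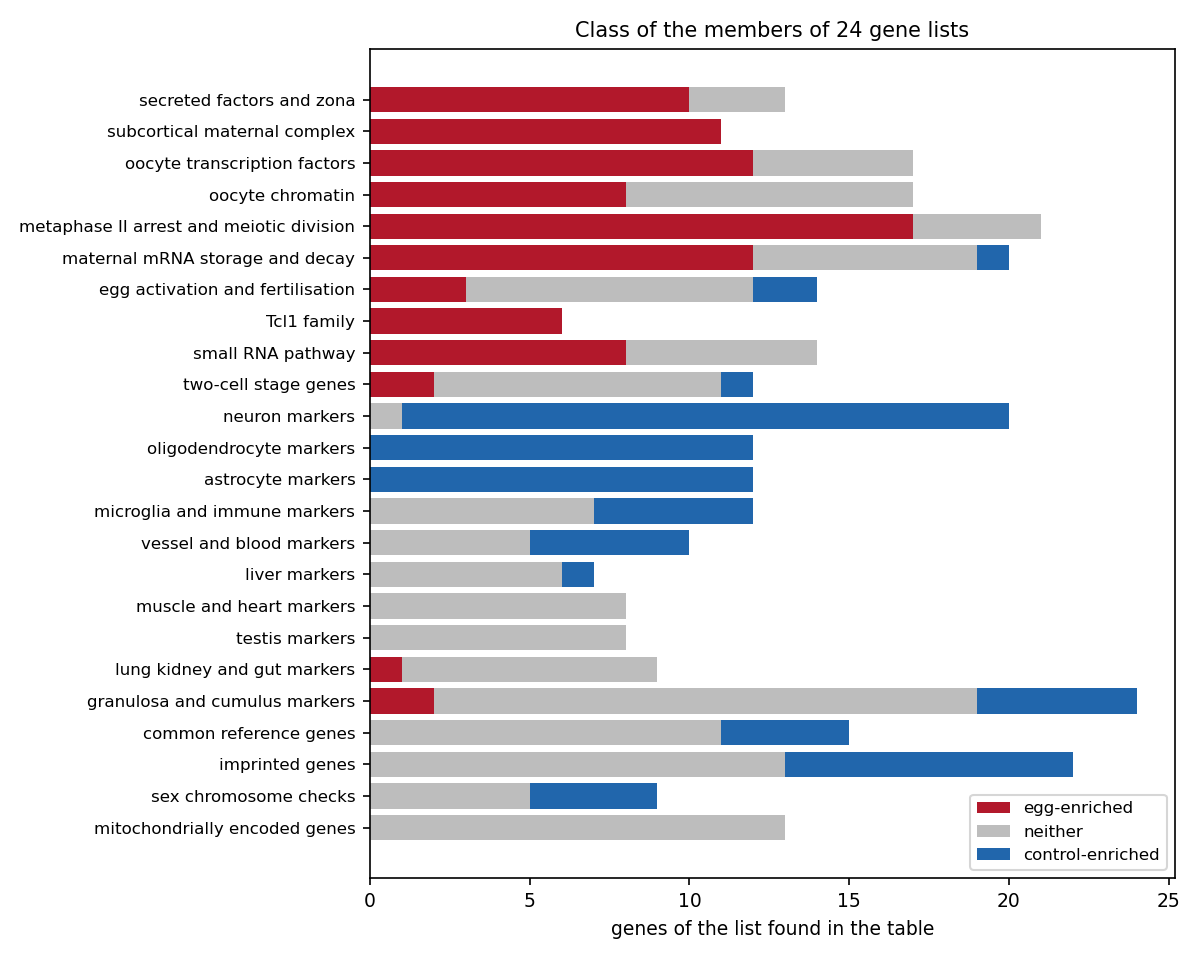
Number of members of 24 gene lists that were egg-enriched (red), control-enriched (blue) or neither (grey). The 11 maternal complex genes and 6 Tcl1 genes are all egg-enriched, the 12 oligodendrocyte and 12 astrocyte markers are all control-enriched, and the 13 mitochondrially encoded genes are neither.

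Of the 1326 egg-enriched genes, 258 (19.5%) had an egg-enriched neighbour among the listed genes, against 9.82% of all 25965 genes, and 58 (4.37%) lay in 14 runs of at least 3. The longest run held 13 genes at chromosome 9, 109139454 to 109746089, 12 named as Fbxw genes, which encode F-box proteins with WD repeats, and CT025661.1, which M21 names Fbxw25. Their means ran from 15.4 RPM (Fbxw13) to 2279 RPM (Fbxw24), and the 13 together had 61 control reads. Fbxw24 ran from 1668 to 2770 RPM. Fbxw19 differed among females, with a mean of 635.8 RPM and a range of 340.3 to 1390 RPM. Outside the run Fbxw11, a general F-box gene, was control-enriched at 215.7 against 19.1 RPM, a log2 ratio of -3.50 that fell short at -2.85 with the trimmed mean scaling.

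The Tcl1 run at chromosome 12, 105146014 to 105222793, held 7 egg-enriched entries, with all 6 Tcl1 family genes. Means were 9886 RPM for Tcl1, 1826 for Tcl1b1, 883.4 for Tcl1b2, 582.8 for Tcl1b3, 556.1 for Tcl1b4 and 136.3 for Tcl1b5. Tcl1b4 had 1 control read and Tcl1b5 had 0. Within the Tcl1 gene lay Gm20697 at 4202 RPM, and without strand its reads cannot be told from those of Tcl1. Further runs held Trim75, Trim60, Trim61 and Gm10664 on chromosome 8, with 2 overlapping pairs, and Khdc1a, Khdc1c and Khdc1b on chromosome 1 at 33.6, 30.8 and 1584 RPM. A run at chromosome 10 joined Atg5, the autophagy conjugation factor, at 861.1 RPM with Aim1 and Prdm1 at 20.2 and 19.9 RPM. Selp, the adhesion receptor P-selectin, lay in a run on chromosome 1 with 2 overlapping predicted genes and ran from 119.5 to 219.5 RPM over 2 control reads.

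**Figure D5:**
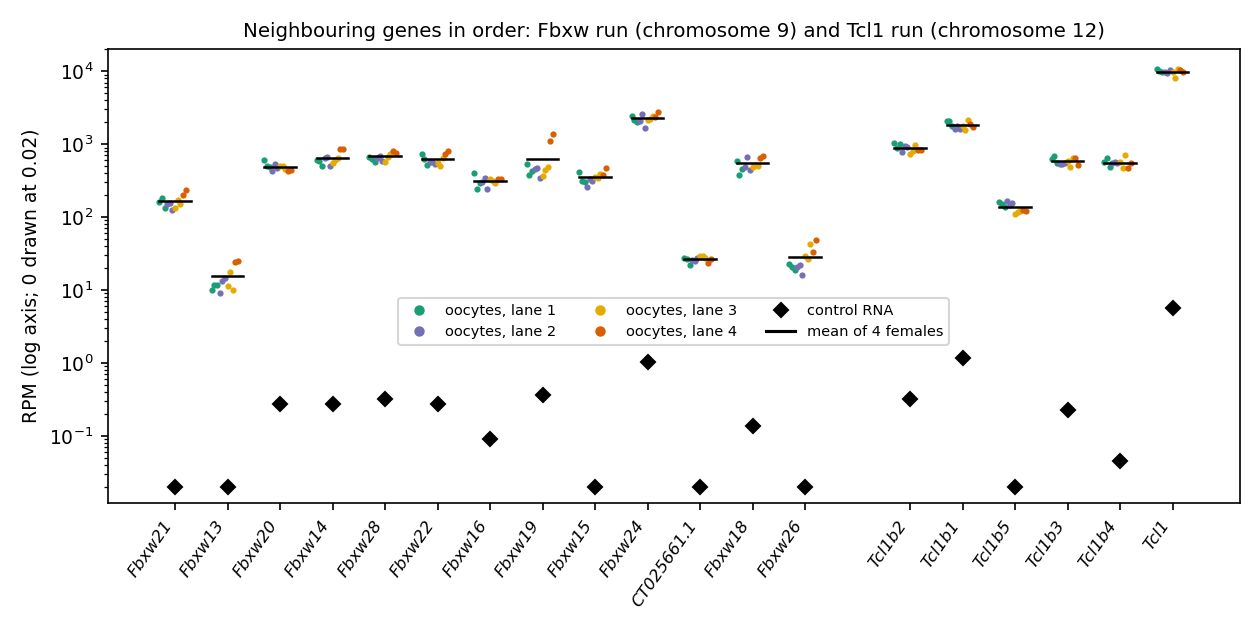
RPM (log axis) of the 13 genes of the Fbxw run and the 6 Tcl1 genes in chromosomal order, in 11 oocytes (circles by lane) with the mean of the 4 females (bar) and the control RNA (diamonds, 0 drawn at 0.02). Every oocyte is above the control in every gene, and levels within a run differ by over 50-fold.

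Among entries without a gene name, 101 predicted Gm genes and 105 Riken clone genes were egg-enriched. These are 2.57% and 4.74% of those listed, both below the 5.11% of all genes. E330034G19Rik ran from 4423 through 5672 to 7123 RPM over 59 control reads, a level per kilobase of 3093 RPM. E330021D16Rik stood at 2920 ± 388.8 RPM and Gm1965 at 2588 ± 293.1 RPM, with 34 and 25 control reads. The entry 2700029M09Rik, whose ID is that of Hpf1, a cofactor of the PARP enzymes, stood at 2035 ± 126.0 RPM against 56.1 RPM. By gene type, 36 long intergenic RNA genes were egg-enriched, 3.21% of 1120, and 19 control-enriched, 1.70%. Both shares are below those of all genes, 5.11% and 16.6%, and only 210 of the 1120 reached 1 RPM in either kind.

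Kinesin genes were 10 of 42 egg-enriched (23.8%) and 7 control-enriched (16.7%), against 5.11% and 16.6% of all genes. Kif23, of the central spindle, ran from 903.8 through 1031 to 1216 RPM over 48 control reads. The neuronal transport motor Kif5a ran from 0 to 0.311 RPM in oocytes against 2162 RPM, and Kif1a, of synaptic vesicle transport, from 0 to 1.55 RPM against 669.5 RPM. Tubulin genes were 3 of 23 egg-enriched (13.0%) and 8 control-enriched (34.8%). Tubb4a and Tuba1a stood at 1367 and 369.0 RPM in the control and at 0.0327 and 0.0426 RPM in oocytes. Tubal3 stood at 70.8 ± 8.06 RPM with 0 control reads, at least 520.4-fold.

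Potassium channel genes were 51 of 94 control-enriched and 3 egg-enriched, against 16.6% and 5.11% of all genes. Those 3 were Kcnk18, a background channel, from 38.5 through 45.5 to 85.1 RPM, Kcnq1 at 30.2 ± 6.51 RPM and Kcnmb3 at 12.9 ± 4.44 RPM, with 0, 22 and 0 control reads. GABA receptor genes were 12 of 19 control-enriched, and Gabrr3 and Gabrp were egg-enriched at 22.2 and 10.1 RPM with 0 control reads. Without the lane 4 female 1 of the 2 passed. Glutamate receptor genes were 18 of 27 control-enriched and none egg-enriched. Grm2, a metabotropic receptor, came nearest at 512.4 ± 165.2 against 55.1 RPM, a ratio of 9.29. Its log2 ratio of 3.22 passed the 10-fold call with the trimmed mean scaling (3.90), the median of ratios (3.34), lane 4 alone (3.74) and without the lane 3 female (3.33). The transporter Slc45a3 led its 337 Slc relatives in the egg at 1220 ± 233.0 RPM against 6.22 RPM. Of those 337 genes 11 were egg-enriched and 92 control-enriched.

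A few genes usually named for other tissues were egg-enriched. Hoxa7, a homeobox patterning gene, ran from 51.5 through 76.6 to 90.2 RPM with 0 control reads and was the sole egg-enriched one of 41 Hox genes, of which 18 had no oocyte read. Vil1, the brush-border protein villin, ran from 75.2 to 140.3 RPM over 9 control reads. Krt84, a hair keratin, stood at 68.7 ± 10.4 RPM over 3 reads. Among 1110 olfactory receptor genes 996 had no read in any oocyte, and Olfr976 and Olfr288 were egg-enriched at 38.2 and 35.1 RPM. Without the lane 4 female 3 olfactory genes passed. Of 320 vomeronasal receptor genes 267 had no oocyte read and none was egg-enriched. Among all listed genes 33.0% had no oocyte read and 5.11% were egg-enriched.

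Some genes of the control had no read in any egg. Of the listed genes 757 (2.92%) had at least 10 RPM in the control and 0 reads in all 11 oocytes. Eno2, neuronal enolase, stood at 1148 RPM in the control and was at least 8965-fold lower in oocytes. Gpm6b, a membrane glycoprotein of neurons and glia, stood at 1058 RPM, Rgs4, a G protein regulator, at 547.3 RPM, and Gria2, an AMPA receptor subunit, at 439.9 RPM. Also without any oocyte read were Fbxl16, Nelf, which M21 names Nsmf, Cbx6, Aatk, Tmem130 and Abhd8, at 360.4 to 618.6 RPM in the control. In all, 8575 genes (33.0%) had no oocyte read, and 5403 of these had none in the control.

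Among the control's most abundant control-enriched genes, beside Mbp, were Ndrg4 at 3248 RPM and the nuclear RNA Malat1 at 3014 RPM. In oocytes these ran from 1.55 to 22.3 and from 0.932 to 23.0 RPM. Snap25, of the synaptic fusion machinery, stood at 2483 RPM against 0 to 0.914 RPM, 17282-fold over the oocyte mean. Fth1, the ferritin heavy chain, was less uneven, at 2627 RPM against 9.46, 52.6 and 81.0 RPM as the lowest, median and highest oocyte.

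Marker lists gave the same picture by cell type. Oligodendrocyte and astrocyte markers were control-enriched in 12 of 12 genes each, against 16.6% of all genes. Their summed levels were 12272 and 8307 RPM in the control and 21.9 to 42.4 and 6.02 to 19.4 RPM in oocytes. Gfap, Aqp4, Mag, Ermn and Sox10 had 0 reads in every oocyte. Neuron markers were control-enriched in 19 of 20, with 13670 RPM in the control and 139.9 to 220.8 RPM in oocytes. The exception was Th, the rate-limiting enzyme of catecholamine synthesis, at 87.9 ± 23.2 RPM in oocytes and 34.0 RPM in the control. Syt1, a synaptic calcium sensor, and Calb1, a calcium buffer, were control-enriched yet present in every oocyte, at 46.4 to 81.1 and 6.15 to 38.3 RPM. Th, Syt1 and Calb1 made up most of the neuron sum of an oocyte. In a mixed RNA such as the control, fewer cells of a type and less RNA per cell cannot be told apart.

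Markers of other cell types and tissues had lower sums in the control. Microglia and immune markers were control-enriched in 5 of 12 and vessel and blood markers in 5 of 10, with sums of 348.2 and 259.4 RPM. Of 7 liver markers 5 had no read in any of these libraries, as had 5403 of all 25965 listed genes. The transport protein gene Ttr, made by liver and choroid plexus, stood at 430.5 RPM in the control and had 1 read in 1 oocyte. No muscle, heart or testis marker passed in either direction, and their sums in the control were 21.1 and 3.68 RPM. Y-linked Ddx3y, Eif2s3y, Kdm5d and Uty stood at 47.5, 40.2, 13.5 and 11.6 RPM in the control and had 0 reads in all oocytes. Xist had 1 read in the control and at most 0.425 RPM in an oocyte.

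Markers of the follicle's cells were low in the oocyte libraries, apart from a few. Of 24 granulosa and cumulus markers 2 were egg-enriched (8.33%) and 5 control-enriched (20.8%), against 5.11% and 16.6% of all genes, and their summed level ran from 73.8 to 121.0 RPM per oocyte. Most of it was Cyp19a1, the aromatase of oestrogen synthesis, from 42.0 through 62.4 to 73.1 RPM with 0 control reads. Nr5a2, a nuclear receptor, followed at 12.2 ± 2.84 RPM. Amh, Foxl2, Pgr, Gatm, Areg and Ereg had at most 0.0353 RPM in any oocyte. The cumulus genes Tnfaip6, Inha and Ptx3 reached 8.39, 13.7 and 3.54 RPM in single oocytes, with means of 0.699, 1.17 and 0.295 RPM. Without the lane 2 female the log2 ratio of Tnfaip6 went from -5.17 to -7.67 and that of Inha from -4.13 to -7.38. The part of remaining cumulus RNA in the Cyp19a1 level was not tested.

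Some genes were abundant in both kinds of RNA. Ywhae, a 14-3-3 protein gene, ran from 673.5 through 740.3 to 1114 RPM in the oocytes, with a mean of 817.7 ± 175.4 RPM against 759.3 RPM in the control. Of the mitochondrially encoded genes mt-Cytb stood at 1966 ± 411.6 against 1591 RPM and mt-Nd1 at 1110 ± 195.3 against 1229 RPM, a log2 ratio of -0.15 that became 0.49 with the trimmed mean scaling. None of the 13 was called either way, with a median log2 ratio of 0.39 and a summed level of 3923 to 9418 RPM in oocytes and 4928 RPM in the control. The 13 genes were uneven in the control, where mt-Co2, mt-Co3 and mt-Atp6 stood at 2.27, 6.90 and 5.13 RPM, and the sources used here do not say how reads that also match nuclear copies were counted.

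No common reference gene was egg-enriched, and 4 of 15 were control-enriched (26.7%), against 5.11% and 16.6% of all genes. Sdha, a respiratory chain subunit, stood at 329.4 ± 21.4 against 645.8 RPM, and Hsp90ab1, a chaperone, at 500.6 ± 22.8 against 1312 RPM. Hprt, of purine salvage, stood at 290.0 ± 31.9 against 191.7 RPM. Actb and Gapdh, which have many processed copies in the genome, stood at 46.3 and 0.198 RPM in oocytes and 311.1 and 3.68 RPM in the control, and the counting of reads that match several copies is likewise unstated. The same holds for the 81 cytosolic ribosomal protein genes, of which 21 were control-enriched (25.9%). Rps27l, a stress-linked relative of Rps27, was the highest of the 3 egg-enriched ones at 328.3 ± 65.8 against 11.9 RPM.

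Imprinted genes were 9 of 22 control-enriched (40.9%) and none egg-enriched, against 16.6% and 5.11% of all genes. Nnat had 0 oocyte reads and 338.7 RPM in the control. Ndn and Rasgrf1, at 470.2 and 541.0 RPM in the control, had at most 0.0484 RPM in any oocyte. Snrpn was present in every oocyte, at 18.1 to 68.6 RPM, but stood at 1232 RPM in the control. Mest ran from 167.6 to 439.7 RPM in oocytes against 57.5 RPM. Among the 22 listed imprinted genes it had the highest level in eggs.

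Single oocytes varied about as much in egg-enriched genes as in others. The median coefficient of variation over the 11 oocytes was 16.6% (quartiles 13.0% and 22.0%) in 678 egg-enriched genes of at least 100 RPM, and 17.9% (13.7% and 23.3%) in 1222 other genes of that level. This spread holds differences between eggs, females and lanes together with the noise of amplification. Reads copied from 1 molecule by amplification are not independent, so the Poisson limits given here are narrower than the error of a repeated measurement.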

How the data were processed

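The deposited table holds log2 values for each gene and library. The name of the table says RPKM, but the values are log2 RPM with a column minimum for no reads: that minimum equals 0.9 reads, and after 2 to the power of the value, 99.86% of 167223 values above 0 lay within 0.02 of whole reads (100.0% of 141103 under 2000 reads). The column minimum was set to 0. Per the submitters' processing notes the tools were HISAT2, Trim Galore and FastQC, and the builds mm39 and GRCm39. The counter, its annotation, its use of strand and its handling of multiply matching reads were not given in the sources used here. Coordinates in the table fit GRCm38: 25035 gene IDs matched GENCODE M21, and 24982 (99.8%) overlapped that gene. Exon lengths came from M21 and promoters from RefSeq on GRCm38.p6.

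From these values RPM, female means, ratios with a floor of 3 reads and, without that floor, ratios with Poisson limits were computed (python 3.11.15, numpy 2.4.6, pandas 2.3.3, scipy 1.17.1). The calling rule was checked on simulated reads with planted changes set away from the 10-fold cut. That check did not cover noise between control libraries or a broad shift between the 2 kinds of RNA. No test was run, since the control is 1 library. Oocytes of 1 female share an animal and a lane, so n counts the 4 females. Alternatives were 3 scalings, other folds, level minima and floors, lane 4 alone and each female left out. Counts of list members without the lane 4 female were added after seeing the data.

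The members and lists were chosen with earlier results of these data known. Named genes were the 4 markers, the 15 most abundant and 15 most enriched egg genes, the 12 highest control genes, the 10 highest control genes without oocyte reads, up to 4 leading and any contrary members of each list or family, 6 shared genes, 6 predicted genes and the 8 longest runs. Other list members and the genes that set the lane 4 female apart were chosen after their values were seen. Some named genes are not reported here.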

Additional observations from a re-analysis of the deposited data

Results flagged for a closer look

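In 20 of the 142 named genes whose mean reached 1 RPM, the value of 1 female lay far from those of the other 3 by Dixon's criterion, which chance meets in about 1 of 20 groups. Some of these genes were named because the lane 4 female differed in them, so their share is no measure of the pattern. Of all 11064 genes whose mean reached 1 RPM, 1022 (9.24%) met the criterion, 726 of them through the lane 4 female. Among the named genes set apart, 18 were so through that female. Its mean RPM was above the range of the others for Ube2t (1503 against 127.4 to 160.4), Ube2c (246.3 against 23.4 to 26.7), Zp3 (557.9 against 104.4 to 132.6), Zp2 (142.5 against 71.6 to 83.1), Bmp15 (3860 against 980.2 to 1153) and Plat (8393 against 1688 to 2607). The same held for the maternal complex genes Nlrp5 (397.1 against 116.2 to 152.8), Tle6 (394.5 against 93.4 to 114.2) and 2410004A20Rik (136.5 against 13.0 to 14.6). It held too for Mos (1551 against 390.5 to 526.3), Cd9 (73.7 against 15.9 to 23.1), Snrpn (58.4 against 19.6 to 24.2) and Tcstv1 (111.9 against 35.7 to 39.1). In the Fbxw run it held for Fbxw13 (25.0 against 11.2 to 13.0) and Fbxw19 (1243 against 423.5 to 443.8). Smaller gaps were seen for Ywhae (1078 against 697.8 to 759.4) and H3f3b (1769 against 1544 to 1550). Khdc1a was lower in that female, at 22.6 RPM against 36.1 to 38.7.

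The lane 2 female was set apart in the other 2 genes. Khdc1b had 1860 RPM there against 1471 to 1532, and the follicle cell gene Inha had 4.57 RPM against 0 to 0.101. That Inha value came largely from 1 oocyte of the female, at 13.7 RPM.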

How the results depend on the processing

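The control is 1 library of unnamed source, so ratios carry no error between control samples, and its low reads limit the largest ratios. The counts of 1326 egg-enriched and 4311 control-enriched genes became 1701 and 3350 with the trimmed mean scaling, 1377 and 4128 with the median of ratios, and 1271 and 4425 from lane 4 alone. At a fold of 4, 2195 genes were egg-enriched. With a level minimum of 1 RPM, 1675 control genes had no oocyte read in place of 757, and 578 egg genes had no control read in place of 198. Allowing up to 3 control reads gave 306. Leaving out each female gave 1321 to 1336 egg-enriched genes, 4302 to 4343 control-enriched genes, 855 to 878 control genes without oocyte reads and 196 to 201 egg genes without control reads. No called gene named here changed direction under these settings. Of 64 lists and families, the egg-enriched count moved by over 1.5 times without the lane 4 female in 2 and the control-enriched count in 2. No paired analysis was possible because the control is 1 library and the results come from no test.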
